A study of Caenorhabditis elegans with 12 samples.

Results

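The genotype by age interaction asked, gene by gene, whether *daf-2(rf)* cells of the proximal somatic gonad (PSG) differed more, or less, from their *daf-16(0); daf-2(rf)* counterparts on D7 of adulthood than on D1. It was the D7 genotype difference minus the D1 genotype difference on the log2 scale, taken from 1 fit of all 12 libraries, and it was tested for the 8096 of 46687 genes in the count table whose read count exceeded 10 in each replicate of 1 group or more. A positive interaction means that a gene stood higher in *daf-2(rf)* relative to the double mutant on D7 than it did on D1. A negative one means the opposite.

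The 4 groups of 3 libraries came from *Caenorhabditis elegans* hermaphrodites, either *daf-2(e1370)*, a reduction-of-function allele written *daf-2(rf)*, or *daf-2(e1370)* together with *mu86*, a null allele of *daf-16* written *daf-16(0)* (the double mutant), on D1 or D7. All carried *daf-2(rf)* and the single-copy transgene *Pfos-1a::gfp*, so there was no group with wild-type insulin receptor activity, and the genotype difference is the effect of *daf-16* within *daf-2(rf)*. GFP+ cells were sorted from dissociated animals pooled for each library, and the *fos-1a* promoter marks cells of the spermatheca and uterus. Each library is therefore an average over the sorted cells, in which fewer cells of a type and less RNA per cell cannot be told apart.

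DAF-2 is the insulin/IGF-like receptor of the worm. Its activity keeps the FOXO transcription factor DAF-16 phosphorylated and out of the nucleus, so that in *daf-2(rf)* animals DAF-16 is active and promotes stress resistance and long life, and in the double mutant it is missing. The PSG holds and ovulates oocytes: the spermatheca stretches and contracts around each oocyte through calcium and inositol trisphosphate signaling, and the uterus stores the embryos. Unmated hermaphrodites have stopped reproducing by the later of the sampled ages.

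Library totals lay between 6183054 and 16407304 reads, the 10 most abundant genes took 27.3% to 73.5% of them, and the normalization factors spanned 0.385 to 3.21. Levels are given in CPM, which are reads of a gene relative to the size of its library times its factor, 1 read being worth 0.0251 to 0.372 CPM. The first replicate of D1 *daf-16(0); daf-2(rf)* stood apart: it was the shallowest, and had 4396 genes above 10 reads against 6246 to 9743 in the other 11. Of 21 PSG markers, at most 1 was at 0 reads in a library, with *fos-1* at 95.9 to 448 CPM, the forkhead factor *fkh-6* at 71.1 to 660 CPM and the filamin *fln-1*, an actin cross-linker of the spermatheca, at 309.8 to 1145 CPM. The spermathecal receptor *nhr-6* was at 0 reads in 2 libraries and at no more than 2.73 CPM. The 21 PSG markers summed to 193100 to 402500 CPM in D1 *daf-2(rf)* and 359400 to 887600 CPM in the D1 double mutant. On D7 they summed to 304800, 40710 and 50700 CPM in *daf-2(rf)* and 171700 to 267500 CPM in the double mutant. The genotypes overlapped at both ages, and the part of PSG cell content in the results was not tested. Markers of other tissues were measured too: the myosin *unc-54* of body-wall muscle at 9.67 to 92.1 CPM, the yolk receptor *rme-2* of oocytes at 4 to 210 reads, the intestinal factor *elt-2* at no more than 16 reads and the gut esterase *ges-1* at no more than 9 reads. The body-wall muscle list summed to 8818 to 10100 CPM in D1 *daf-2(rf)*, 7856 to 19520 CPM in the D1 double mutant, 1528 to 5190 CPM in D7 *daf-2(rf)* and 3233 to 4660 CPM in the D7 double mutant, overlapping between genotypes at both ages, with at most 1 of its 14 members at 0 in a library. Its part in the results was not tested. *daf-16* itself measured 41.7, 38.1 and 35 CPM in D1 *daf-2(rf)* and 7.45, 4.94 and 18.6 CPM in the D1 double mutant, then 43.4, 27.6 and 13.3 CPM in D7 *daf-2(rf)* and 6.24, 6.88 and 10.3 CPM in the D7 double mutant. It was lower in the double mutant at both ages without overlap, by 1.89 and 1.85 on the log2 scale, and its interaction was -0.04.

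The most common pattern among the called genes was an exchange of sides. Most genes called with a positive interaction were lower in *daf-2(rf)* than in *daf-16(0); daf-2(rf)* on D1 and higher on D7, and most called with a negative one went the other way. Of the 8096 genes, 57 passed a Benjamini-Hochberg adjusted p of 0.05 in edgeR's quasi-likelihood fit, or 0.704% of those tested. A positive interaction was called for 24 genes (0.296%) and a negative one for 33 genes (0.408%). Before adjustment, 1910 genes (23.6%) had a p under 0.05, 992 of them positive (12.3%) and 918 negative (11.3%). The adjusted p-values of the called genes all lay between 0.0426 and 0.0498, just inside the threshold. Leaving out 1 library at a time moved the count to between 0 and 130: it was 0 without any one of the 3 D1 *daf-2(rf)* libraries, without D1 double mutant replicate 1, without D7 *daf-2(rf)* replicate 3 or without D7 double mutant replicate 1 or 3, 1 without D7 *daf-2(rf)* replicate 2, 20 without D7 double mutant replicate 2 and 130 without D1 double mutant replicate 2. All 57 genes kept their sign and an unadjusted p under 0.05 in each of those 12 fits, and DESeq2's Wald test on the same counts called 846 genes, the 57 among them. The 57 had been chosen by these same libraries, so both outcomes were largely fixed beforehand and are descriptions.

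Among the 57 called genes, 54 had genotype differences of opposite sign at the 2 ages, against 55.1% of all genes tested. This follows in part from the contrast that chose them and is a description. All 24 genes with a positive interaction had higher fitted levels on D7 than on D1 in *daf-2(rf)*, and 23 of them had lower ones in the double mutant. Of the 33 genes with a negative interaction, 32 had lower fitted levels on D7 in *daf-2(rf)* and all 33 had higher ones in the double mutant. In the double mutant these direction counts were identical without its D1 replicate 1, although the genes had been chosen with that library included. The counts in *daf-2(rf)* do not use that library except through the normalization and the shared fit. The D1 genotype difference was called on its own for 26 of the 57, beside 2.69% of all genes tested, and the D7 difference for 24, beside 3.12%. The change with age passed its own test in the double mutant for 35 of the 57 genes, beside 11.6% of all genes tested, and in *daf-2(rf)* for 3 of them, beside 0.136%. Without D1 double mutant replicate 1, the change in the double mutant passed for only 2 of the 24 positive genes and 2 of the 33 negative ones. Over all 8170 genes then tested, it passed for 11 rising and 25 falling genes. The libraries of one genotype did not overlap those of the other on D1 for 53 of the 57 genes, beside 29.1% of all genes, on D7 for 42, beside 25.3%, and at both ages for 38, beside 7.86%. These shares, and those of the tests before them, also follow in part from the choice of the 57 genes by the same libraries and are descriptions. Across all genes tested the D1 and D7 genotype differences were only loosely related, with a Pearson r of 0.178 and a Spearman rho of -0.0591 across genes, which are not independent replicates. None of the 24 genes with a positive interaction and 5 of the 33 with a negative one lie on the X chromosome, which holds 14.7% of all genes tested.

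**Figure D1:**
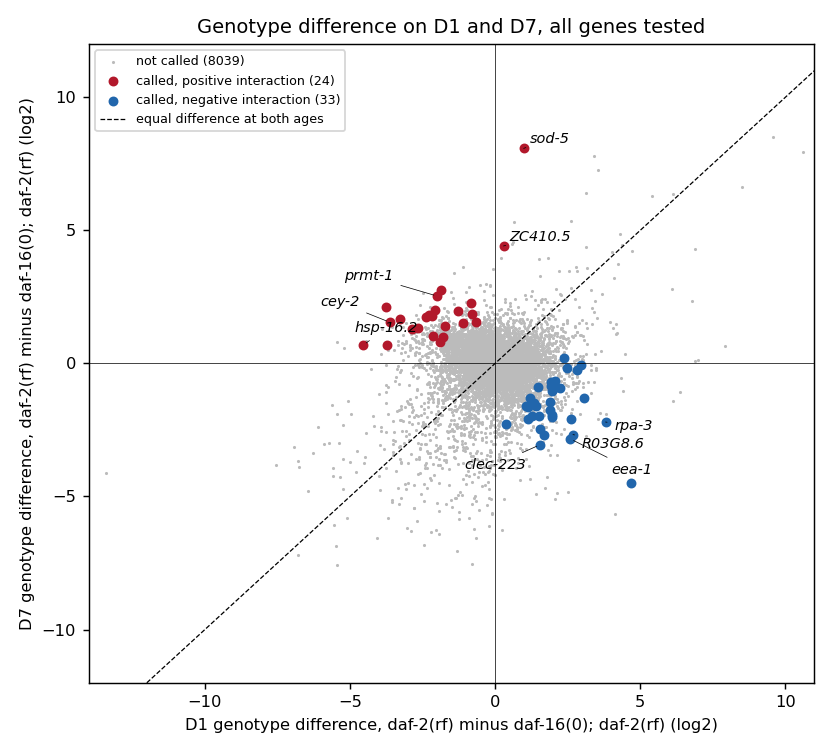
Genotype difference, *daf-2(rf)* minus *daf-16(0); daf-2(rf)* (log2), on D1 (horizontal) and D7 (vertical); each point is 1 of the 8096 genes tested, and the dashed line marks an equal difference at both ages. The 24 genes called positive (red) lie above the line and the 33 called negative (blue) below it, and 54 of the 57 lie in the quadrants where the sign of the difference changes between ages.

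The genes called with a positive interaction included *hsp-16.2*, *daf-21* and Y49E10.4, which act in protein folding. *hsp-16.2* (chromosome V, 1804334 to 1804971 in WBcel235), a small heat shock protein that holds unfolded proteins in solution, measured 42.2, 20.7 and 15.6 CPM in D1 *daf-2(rf)*, 337, 971 and 513.3 CPM in the D1 double mutant, 111.7, 151 and 615 CPM in D7 *daf-2(rf)* and 209.9, 206 and 129 CPM in the D7 double mutant. It was lower in *daf-2(rf)* on D1 without overlap, and on D7 the genotypes overlapped. The interaction was 5.23 with a standard error (SE) of 0.95 (adjusted p = 0.046, edgeR), made of a D1 difference of -4.54 (adjusted p = 0.017) and a D7 difference of 0.69 (adjusted p = 0.63). Reads of *hsp-16.2* and of other *hsp-16* genes with similar sequences may not be separable.

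*daf-21* (chromosome V, 14684918 to 14688543), the cytosolic HSP90 chaperone, showed the same order. Its level was 819, 390 and 917 CPM in D1 *daf-2(rf)* against 3510, 2611 and 3174 CPM in the double mutant, and 3177, 3196 and 4818 CPM in D7 *daf-2(rf)* against 1663, 1766 and 2029 CPM in the double mutant. The genotypes did not overlap at either age, and the side on which *daf-2(rf)* lay changed between them. The interaction was 3.16 (SE 0.66, adjusted p = 0.047). Y49E10.4, annotated in the count table as a probable protein disulfide-isomerase A6, an enzyme of oxidative folding, had an interaction of 4.60 (SE 0.91, adjusted p = 0.046), with 0.312 to 1.31 CPM in D1 *daf-2(rf)*, 1.86 to 4.37 CPM in the D1 double mutant, 2.35 to 8.99 CPM in D7 *daf-2(rf)* and 0.464 to 1.36 CPM in the D7 double mutant. It too had no overlap at either age.

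*sod-5* (chromosome II, 4417683 to 4419131), a cytosolic superoxide dismutase known as a DAF-16 target in whole worms, had the largest positive interaction among the called genes, and its genotypes differed on D7. Its level was 4.52, 1.35 and 0.0776 CPM in D1 *daf-2(rf)* and 1.12, 0.823 and 1.05 CPM in the D1 double mutant, which overlapped. On D7 it was 315, 186 and 300.2 CPM in *daf-2(rf)* and 0.258, 1.61 and 1.11 CPM in the double mutant. The D7 difference was 8.08 (adjusted p = 0.0041), the D1 difference 0.98 (adjusted p = 0.54) and the interaction 7.10 (SE 1.32, adjusted p = 0.046). *sod-5* was 1 of the 3 called genes whose rise with age in *daf-2(rf)* passed its own test, by 7.12 on the log2 scale (adjusted p = 0.031). ZC410.5, *msa-1* in RefSeq (chromosome IV, 9088611 to 9092191), was the only other gene called positive whose difference had the same sign at both ages. It measured 182, 220.3 and 157 CPM in D1 *daf-2(rf)*, 92.3, 63.8 and 302 CPM in the D1 double mutant, 797, 515 and 408 CPM in D7 *daf-2(rf)* and 32.2, 14.8 and 33.8 CPM in the D7 double mutant. Its interaction was 4.12 (SE 0.80, adjusted p = 0.046).

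*cey-2* (chromosome I, 5619567 to 5620668), a Y-box protein that binds mRNA in the germ line, had the smallest p of the positive genes. It measured 2.62, 1.25 and 2.17 CPM in D1 *daf-2(rf)* and 28.3, 30.6 and 15.9 CPM in the D1 double mutant, then 5.05, 1.15 and 2.68 CPM in D7 *daf-2(rf)* and 0.825, 1.24 and 0.888 CPM in the D7 double mutant. The D1 difference was without overlap and the D7 levels overlapped, so that the interaction of 5.17 (SE 0.74, adjusted p = 0.043) rested mostly on the high D1 double mutant and its fall with age, -4.65 (adjusted p = 0.0082). Its paralog *cey-3*, with 0.521 to 1.4 CPM in D1 *daf-2(rf)* and 5.95 to 16 CPM in the D1 double mutant, had an interaction of 4.41 (SE 0.91, adjusted p = 0.046), and the similar sequences of both may share reads. *puf-3*, a Pumilio family repressor of mRNA translation in oocytes, had one of 4.94 (SE 1.02, adjusted p = 0.046) on levels of 0.208 to 1.01 CPM in D1 *daf-2(rf)* and 4.63 to 8.19 CPM in the D1 double mutant. *ima-2*, an importin alpha that carries proteins into the nucleus and is used by the germ line, had one of 4.10 (SE 0.83, adjusted p = 0.046).

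**Figure D2:**
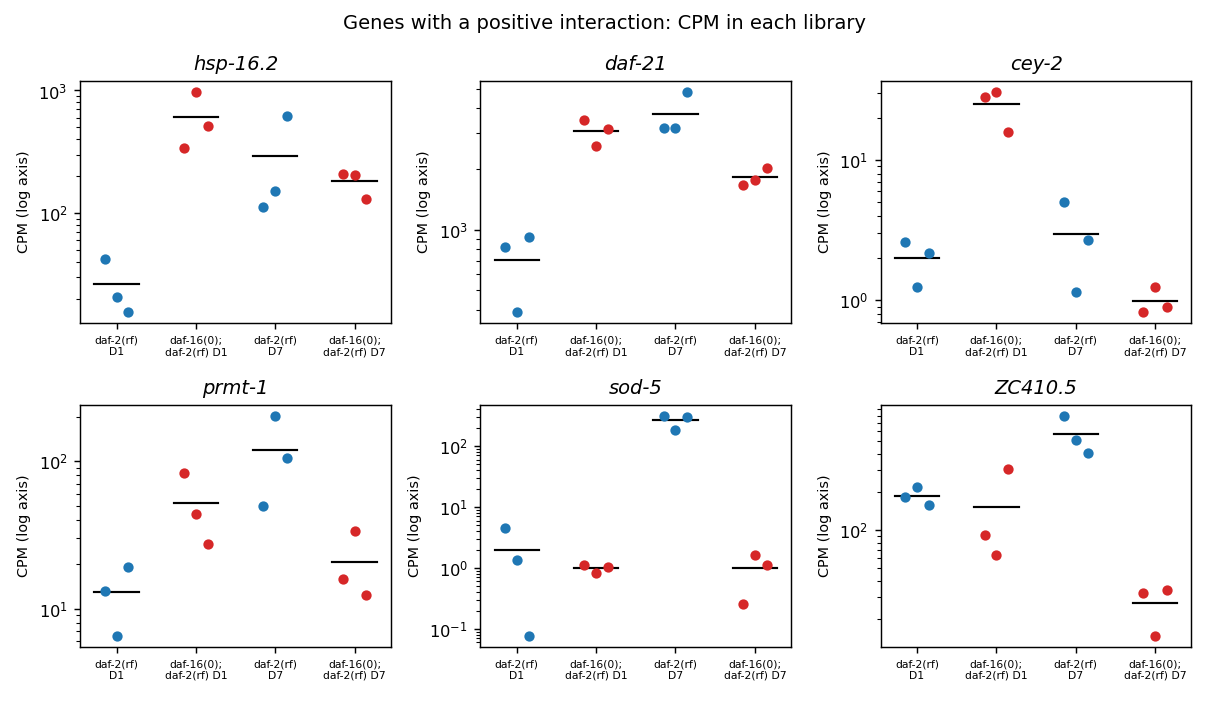
CPM on a log axis in each of the 12 libraries for 6 genes with a positive interaction; points are libraries (blue *daf-2(rf)*, red *daf-16(0); daf-2(rf)*) and the bar is the group mean. In *daf-2(rf)*, *daf-21* is at 390 to 917 CPM on D1 and at 3177 to 4818 CPM on D7, *cey-2* is highest in the D1 double mutant (15.9 to 30.6 CPM), and *sod-5* reaches 186 to 315 CPM only in D7 *daf-2(rf)* among these libraries.

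*prmt-1* (chromosome V, 20267450 to 20269711), the main asymmetric protein arginine methyltransferase, changed sides with no overlap at either age. It measured 13.1, 6.56 and 19 CPM in D1 *daf-2(rf)* against 83.4, 44.1 and 27.5 CPM in the double mutant, and 49.9, 203 and 105 CPM in D7 *daf-2(rf)* against 15.9, 33.8 and 12.4 CPM. The interaction was 4.52 (SE 0.86, adjusted p = 0.046), with a D1 difference of -1.99 (adjusted p = 0.080) and a D7 difference of 2.53 (adjusted p = 0.042). F15D3.7, *timm-23* in RefSeq, the channel of the mitochondrial inner membrane through which proteins are imported, had 3.96 to 4.37 CPM in D1 *daf-2(rf)*, 6.17 to 25.7 CPM in the D1 double mutant, 8.31 to 13.5 CPM in D7 *daf-2(rf)* and 3.47 to 4.29 CPM in the D7 double mutant, again without overlap. Its interaction was 3.13 (SE 0.64, adjusted p = 0.046). *rpl-11.1*, a protein of the large ribosomal subunit, had one of 3.99 (SE 0.69, adjusted p = 0.046) and fell with age in the double mutant by 2.81 on the log2 scale (adjusted p = 0.021). *cdt-2*, the substrate receptor of a ubiquitin ligase that degrades a DNA replication licensing factor, had an interaction of 5.91 (SE 1.25, adjusted p = 0.0498) on no more than 0.31 CPM in any D1 *daf-2(rf)* library, so that its fitted value depends on few reads. The same holds for *wrb-1* (4.13, SE 0.83, adjusted p = 0.046) and F01G4.4 (4.18, SE 0.86, adjusted p = 0.046), with at most 0.713 and 0.475 CPM in D1 *daf-2(rf)*.

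The negative interactions included several genes with high levels. R03G8.6 (chromosome X, 13094558 to 13100445), annotated by its similarity to an aminopeptidase N of another nematode, *Haemonchus contortus*, measured 842, 2481 and 1233 CPM in D1 *daf-2(rf)* against 73.7, 310.3 and 326 CPM in the double mutant. On D7 it was 263, 86.7 and 214 CPM in *daf-2(rf)* against 1237, 591 and 1770 CPM in the double mutant. The genotypes lay apart at both ages and in opposite order, with an interaction of -5.35 (SE 0.97, adjusted p = 0.046). *clec-223* (chromosome V, 11273148 to 11278159), a C-type lectin, repeated this pattern. It measured 1161, 1050 and 1597 CPM in D1 *daf-2(rf)*, 303, 202 and 800.3 CPM in the D1 double mutant, 236, 51.8 and 113 CPM in D7 *daf-2(rf)* and 1270, 505 and 1555 CPM in the D7 double mutant. The interaction was -4.60 (SE 0.94, adjusted p = 0.046), and the D7 difference of -3.06 passed its own test (adjusted p = 0.032) where the D1 difference of 1.54 did not (adjusted p = 0.16).

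*itr-1* (chromosome IV, 7675174 to 7696922), the inositol trisphosphate receptor that releases calcium from the endoplasmic reticulum and is needed for spermathecal and sheath contraction, was the only called gene of the list of calcium and contractility genes. It measured 92.7, 65.6 and 95.9 CPM in D1 *daf-2(rf)* against 33.9, 24.6 and 57 CPM in the double mutant, and 29, 23.3 and 34 CPM in D7 *daf-2(rf)* against 121, 48.6 and 196 CPM. The genotypes did not overlap on either day. The interaction was -3.22 (SE 0.67, adjusted p = 0.046). After correction of each library for its trend with gene length it was -2.11, and the gene was no longer called (adjusted p = 0.093, edgeR). *plc-1*, the phospholipase C that makes inositol trisphosphate in the spermatheca, had an interaction of -2.07 (SE 0.47, adjusted p = 0.058), just outside the threshold, with 88.4 to 101 CPM in D1 *daf-2(rf)*, 33.2 to 57.2 CPM in the D1 double mutant, 37.2 to 60.4 CPM in D7 *daf-2(rf)* and 79.7 to 115 CPM in the D7 double mutant. *tag-341*, *spv-1* in RefSeq, a RhoGAP that responds to stretch of the spermatheca, had one of -2.17 (SE 0.55, adjusted p = 0.068).

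B0513.5, *magu-4*, T21C9.6 and K02F6.3 were among the genes named for their small p-values in DESeq2. B0513.5, *prdh-1* in RefSeq, annotated as the mitochondrial proline dehydrogenase that starts proline breakdown, measured 42.7, 43 and 39 CPM in D1 *daf-2(rf)*, 12.3, 23 and 13.8 CPM in the D1 double mutant, 15.7, 13 and 16 CPM in D7 *daf-2(rf)* and 36.2, 49.9 and 38.8 CPM in the D7 double mutant. Its interaction of -2.81 (SE 0.44, adjusted p = 0.043) came with a D1 difference of 1.33 (adjusted p = 0.040) and a D7 difference of -1.48 (adjusted p = 0.028), both past their own threshold. *magu-4*, named for the membrane-associated guanylate kinase family of scaffolds, behaved alike, with 55.6, 50.8 and 56.5 CPM in D1 *daf-2(rf)*, 6.70, 14.4 and 22.1 CPM in the D1 double mutant, 17.1, 10.49 and 20.3 CPM in D7 *daf-2(rf)* and 57.2, 35.3 and 69.9 CPM in the D7 double mutant. Its interaction was -3.66 (SE 0.60, adjusted p = 0.046). T21C9.6 (-3.0, SE 0.47, adjusted p = 0.043), annotated by similarity to a phosphoenolpyruvate synthase, and K02F6.3 (-2.68, SE 0.42, adjusted p = 0.043) were called as well. B0513.5, *magu-4* and T21C9.6 were the 3 called genes whose genotype difference passed its own test at both ages.

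**Figure D3:**
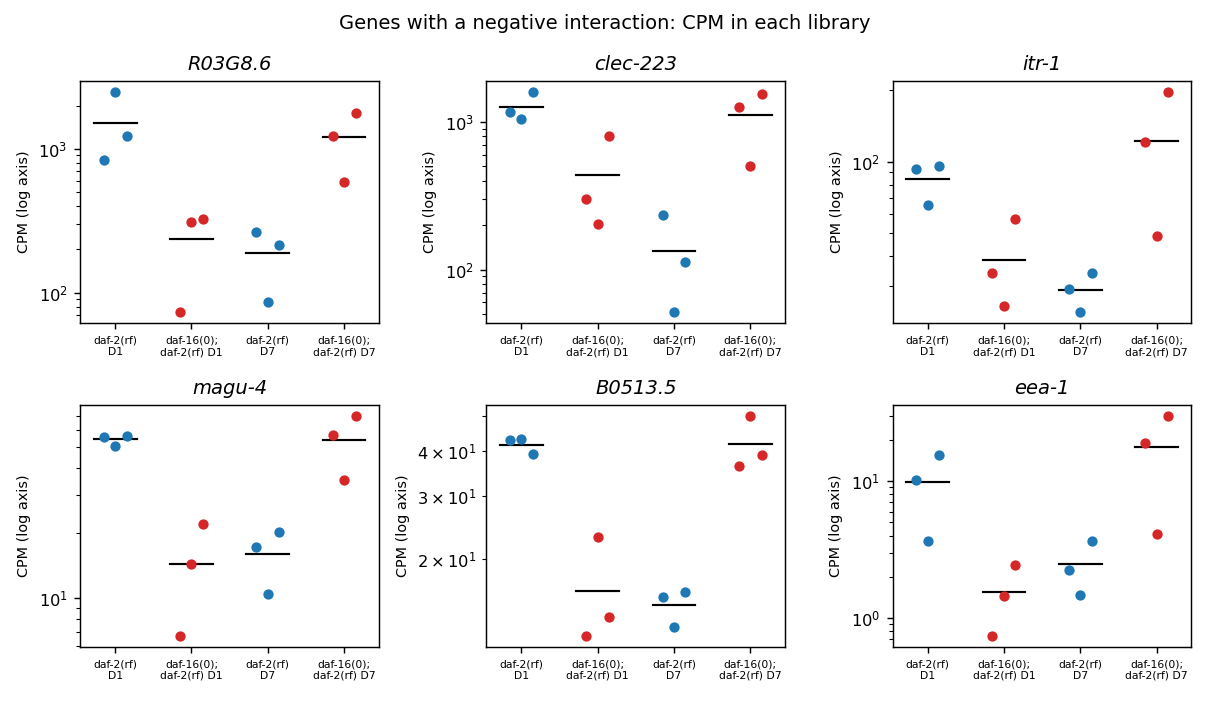
CPM on a log axis in each of the 12 libraries for 6 genes with a negative interaction, drawn as in the plot of positive genes (points are libraries, bars are group means). In each panel D1 *daf-2(rf)* and D7 *daf-16(0); daf-2(rf)* have the highest group means, as for B0513.5 with 39 to 43 CPM and 36.2 to 49.9 CPM against 12.3 to 23 CPM in the other groups.

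The remaining named genes called with a negative interaction had lower mean levels than R03G8.6 and *clec-223*. *eea-1*, an early endosome tethering protein, measured 10.2, 3.65 and 15.5 CPM in D1 *daf-2(rf)* against 0.745, 1.44 and 2.45 CPM in the double mutant, and 2.26, 1.48 and 3.66 CPM in D7 *daf-2(rf)* against 19.1, 4.09 and 30.1 CPM. It had an interaction of -5.43 (SE 1.02, adjusted p = 0.046). T19H5.3 and T19H5.1, neighbouring genes on chromosome II that RefSeq names *chil-27* and *chil-25* for their chitinase-like proteins, had interactions of -4.37 (SE 0.83, adjusted p = 0.046) and -4.01 (SE 0.81, adjusted p = 0.046). T19H5.1, the more abundant of this pair, was at 63.5 to 87.1 CPM in D1 *daf-2(rf)*, 8.94 to 45.7 CPM in the D1 double mutant, 9.04 to 32.8 CPM in D7 *daf-2(rf)* and 70.4 to 164 CPM in the D7 double mutant. *cyp-34A6*, a cytochrome P450, had its genotype difference on D1: 25.7 to 36.9 CPM in *daf-2(rf)* against 4.47 to 6.82 CPM in the double mutant on D1, and 16.51 to 20.3 CPM against 13.9 to 20.7 CPM on D7, for an interaction of -2.2 (SE 0.44, adjusted p = 0.046). C18C4.5 (-4.35), T28C6.7 (-3.96), *tag-241* (-3.91), and C08B6.11 (-4.70) had differences of the same signs as *eea-1*, with the genotypes overlapping on D7 for C18C4.5 and T28C6.7. C24A11.6 had the largest fitted value, -9.19 (SE 1.89), and *rpa-3* had -6.01 (SE 1.08) on 0 to 0.411 CPM in the D1 double mutant. The D1 double mutant libraries held 0, 2 and 0 reads of C24A11.6, so its value depends on few reads. With 1 library left out it lay between -13.03 and -6.89.

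Several gene lists had most of their tested members on one side of 0 although few were called. Of 77 cytosolic ribosomal protein genes tested, 1 was called and all 77 had a positive interaction, 76 of them at an unadjusted p under 0.05, beside 12.3% of all genes tested. Their median interaction was 2.82, with a range of 1.22 to 4.0, beside a median of -0.05 over all genes tested. The summed level of these genes was 14620 to 22540 CPM in D1 *daf-2(rf)*, 27010 to 108300 CPM in the D1 double mutant, 18360 to 21630 CPM in D7 *daf-2(rf)* and 8957 to 10910 CPM in the D7 double mutant. The double mutant was thus above *daf-2(rf)* on D1 and below it on D7 without overlap, while the levels of *daf-2(rf)* overlapped between ages. The fall with age in the double mutant was called for 75 of the 77 genes, beside 7.08% of all genes, and without D1 double mutant replicate 1, the highest of its group, for 16 of the 77, beside 0.306% of all genes. Without that library the median interaction was 1.45, and 70 of the 77 genes had an unadjusted p under 0.05.

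Proteasome subunits, which form the protease of the ubiquitin system, followed. All 32 tested had a positive interaction, 24 at an unadjusted p under 0.05 and none called, with a median of 1.61. Beside these counts, 17 of the 32 had an unadjusted p under 0.05 and the median was 0.95 without D1 double mutant replicate 1. *rpn-11*, the deubiquitinase of the proteasome lid, measured 11.8, 10 and 16.1 CPM in D1 *daf-2(rf)*, 65.2, 25.2 and 16.1 CPM in the D1 double mutant, 22.9, 35.2 and 28.2 CPM in D7 *daf-2(rf)* and 15, 18.7 and 11.7 CPM in the D7 double mutant. It had an interaction of 2.40 (SE 0.64, adjusted p = 0.078). Nuclear genes of oxidative phosphorylation had a median of 1.33, with 25 of 51 positive at an unadjusted p under 0.05 and none negative, and these became 14 of 51 and a median of 0.73 without the same library. *cyc-2.1*, a cytochrome c, had an interaction of 2.15 (SE 0.55, adjusted p = 0.071). Mitochondrial ribosomal proteins had 9 of 42 positive at that p and a median of 0.79, and translation factors and tRNA synthetases had 14 of 58 positive, 2 negative and a median of 0.32. Cathepsin and aspartyl proteases, which act mainly in lysosomes, had 3 of 17 positive, 1 negative and a median of 0.52. Without D1 double mutant replicate 1 that median changed sign to -0.135, with 2 of 18 positive and 1 negative. Their median genotype difference in all libraries was negative at both ages, -3.49 on D1 and -2.57 on D7.

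The large cytosolic chaperones had a similar median without that library. All 20 large chaperones tested had a positive interaction, 10 at an unadjusted p under 0.05, with a median of 1.2, and the median was 1.24 with 9 of 20 without it. Their summed level was 2059 to 3039 CPM in D1 *daf-2(rf)*, 6531 to 7067 CPM in the D1 double mutant, 8075 to 12390 CPM in D7 *daf-2(rf)* and 5467 to 5927 CPM in the D7 double mutant. The genotypes did not overlap at either age and exchanged order, and *daf-2(rf)* was higher on D7 than on D1. Small heat shock proteins had 6 of 14 positive at that p, with a median of 2.79 (2.93 without the library). Chaperones of the endoplasmic reticulum had 0 of 16 positive and 1 negative, with a median of -0.67. Antioxidant enzymes had 8 of 13 positive, with a median of 1.87. Without that library 4 of 13 were positive, with a median of 1.29. Genes known to be activated by DAF-16 in whole worms had 6 of 16 positive with a median of 1.32. Of these, 2 were called, *sod-5* and *hsp-16.2*, beside 0.296% of all genes tested. Without D1 double mutant replicate 1, 4 of the 16 were positive with a median of 1.31, and 0 were called. Genes known to be repressed by DAF-16 in whole worms had 3 of 8 negative with a median of -1.82. *mtl-1*, a metallothionein and classical DAF-16 target, had an interaction of 4.66 (SE 1.76, adjusted p = 0.14), with 0.877 to 1.66 CPM in D7 *daf-2(rf)* and no more than 0.0619 CPM in the D7 double mutant.

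**Figure D4:**
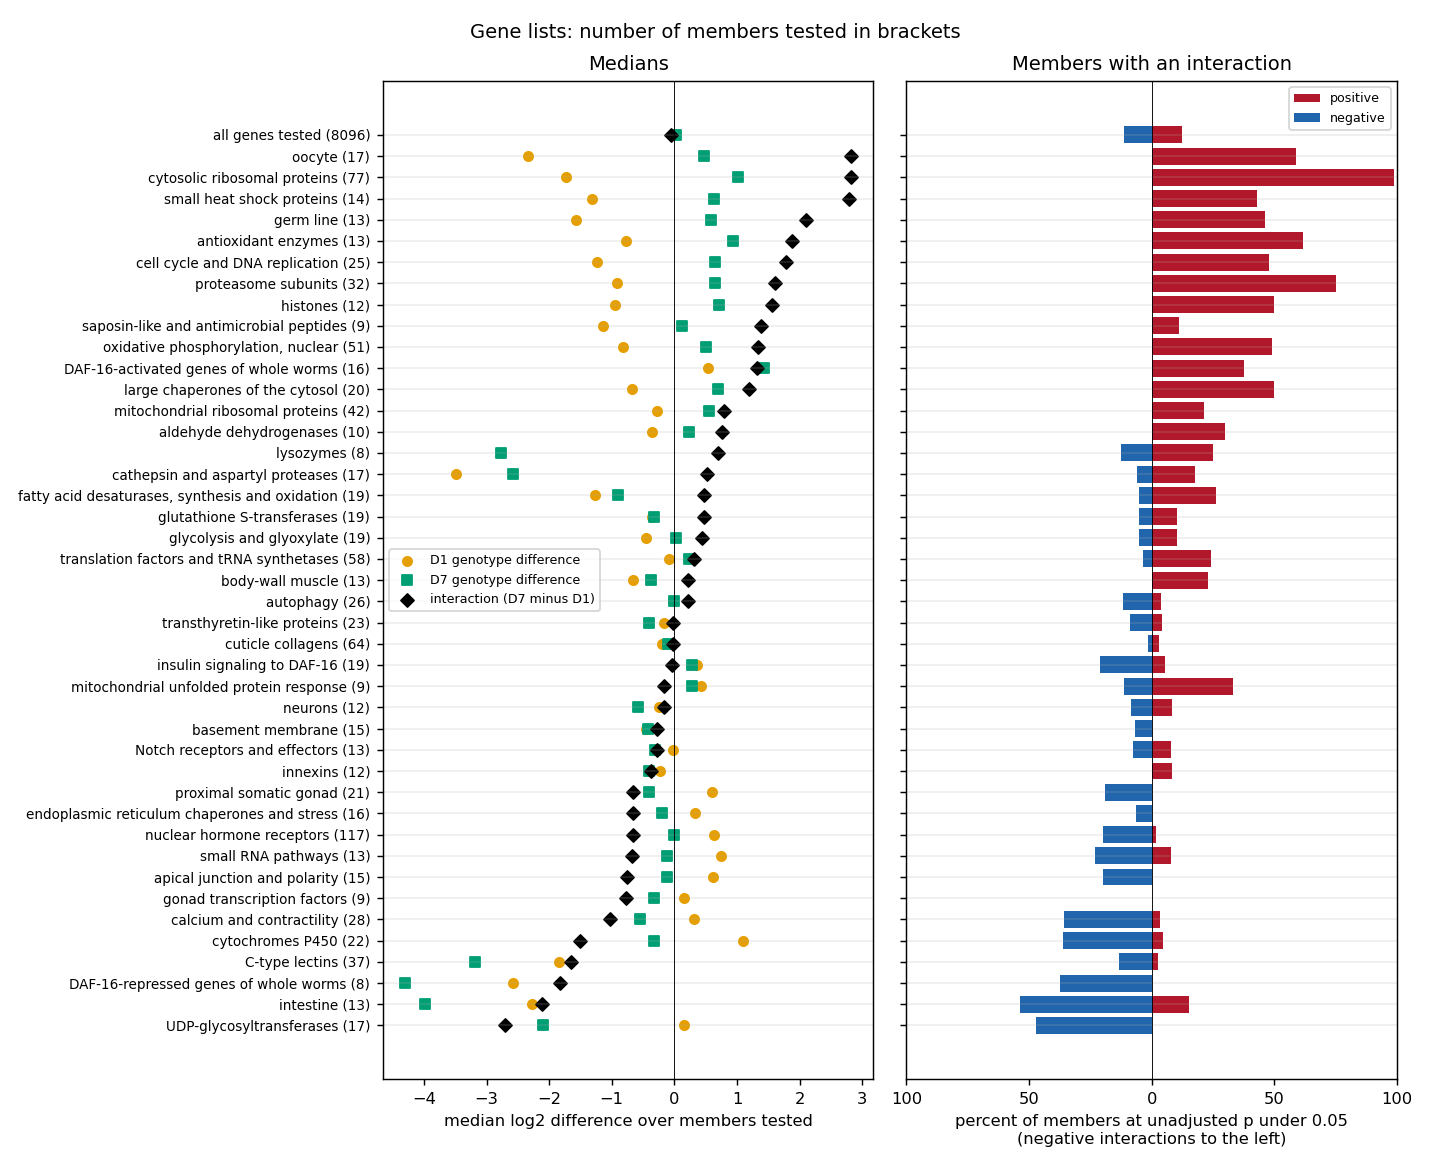
Left, median log2 difference over the tested members of each gene list for the D1 genotype difference (circles), the D7 genotype difference (squares) and the interaction (diamonds); right, percent of members with an interaction at an unadjusted p under 0.05, positive to the right and negative to the left. Lists with at least 8 members tested are shown, all genes tested are at the top, with 12.3% positive and 11.3% negative; cytosolic ribosomal proteins reach 98.7% positive.

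Markers of the germ line and oocytes also had positive interactions, and the sorted cells lie against oocytes. Of 17 oocyte genes tested, 10 were positive at an unadjusted p under 0.05, none negative and none called by edgeR, with a median of 2.82. Of 13 germ line genes 6 were positive and none called, with a median of 2.1, and of 25 genes of the cell cycle and DNA replication 12 were, with a median of 1.78. Without D1 double mutant replicate 1 these medians were 2.88, 1.91 and 1.84. *cpg-2*, a chondroitin proteoglycan of the eggshell, measured 4.99, 0.729 and 7.53 CPM in D1 *daf-2(rf)*, 44.7, 28.5 and 15.4 CPM in the D1 double mutant, 11.2, 1.15 and 4.96 CPM in D7 *daf-2(rf)* and 1.34, 1.67 and 1.78 CPM in the D7 double mutant, with an interaction of 4.54 (SE 1.11, adjusted p = 0.067). *mex-3*, a repressor of translation in oocytes and embryos, had one of 3.86 (SE 1.05, adjusted p = 0.078). The summed level of the 21 oocyte genes was 496 to 1414 CPM in D1 *daf-2(rf)*, 717 to 2473 CPM in the D1 double mutant, 181 to 1029 CPM in D7 *daf-2(rf)* and 154 to 493 CPM in the D7 double mutant, and it overlapped between genotypes at both ages. Between 0 and 5 of the 21 were at 0 in a library. The germ line list summed to 171 to 283 CPM, 242 to 261 CPM, 157 to 272 CPM and 171 to 224 CPM in the same order of groups. *pie-1* was at 3 to 28 reads and *gld-1* at 0 to 60 reads, both being regulators that define the germ line. The part of germ cell RNA in the called germ line genes *cey-2*, *cey-3* and *puf-3* and in the protein synthesis lists was not tested.

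Of the 6 vitellogenins tested, the yolk proteins made in the intestine, 5 were negative at an unadjusted p under 0.05, with a median of -3.70 and none called. Vitellogenin levels summed to 440.0 to 721 CPM in D1 *daf-2(rf)*, 379 to 1415 CPM in the D1 double mutant, 12.9 to 44.3 CPM in D7 *daf-2(rf)* and 61.7 to 973 CPM in the D7 double mutant, so that the genotypes overlapped on D1 and were apart on D7. *vit-2* measured 232, 372 and 198 CPM in D1 *daf-2(rf)*, 695, 163 and 886 CPM in the D1 double mutant, 20.9, 5.61 and 6.90 CPM in D7 *daf-2(rf)* and 472, 31.2 and 165 CPM in the D7 double mutant, with an interaction of -3.21 (SE 1.18, adjusted p = 0.13). The full intestinal list, which holds the vitellogenins, had 7 of 13 negative and 2 positive, with a median of -2.11. The 5 negative vitellogenins are among these 7, so the 2 lists are not separate observations. With the vitellogenins included, the full list summed to 452 to 748 CPM, 561 to 2164 CPM, 26.2 to 62.5 CPM and 138 to 1271 CPM in the same order. The defining intestinal genes *elt-2* and *ges-1* were at no more than 16 and 9 reads in any library. The part of intestinal RNA in these values was not tested. UDP-glycosyltransferases, which conjugate small molecules, had 8 of 17 negative, beside 11.3% of all genes tested, and a median of -2.71. Without D1 double mutant replicate 1 these were 5 of 17 and -2.6. Cytochromes P450 had 8 of 22 negative and 1 positive, with a median of -1.51, and *cyp-34A6* called. Without the libraries with the lowest and highest normalization factor, 5 of 23 were negative and 1 positive. The other detoxification lists had medians above 0: glutathione S-transferases had 2 of 19 positive and 1 negative, with a median of 0.47 that became -0.31 without D1 double mutant replicate 1 and -0.13 after correction of each library for its trend with gene length, and aldehyde dehydrogenases had 3 of 10 positive and none negative, with a median of 0.76. C-type lectins had 5 of 37 negative and 1 positive, a share near that of all genes tested, with a median of -1.66 and *clec-223* called. Without the libraries with extreme factors 4 of 38 lectins were negative and 3 positive, and without D1 double mutant replicate 1 it was 8 of 37 and none.

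Calcium and contractility genes had 10 of 28 negative and 1 positive at an unadjusted p under 0.05, beside 11.3% negative over all genes tested, with a median of -1.03. After the length correction the median was -0.42, with 4 of 28 negative and 2 positive. PSG markers had 4 of 21 negative and none positive, with a median of -0.65. That median was -0.43 without D1 double mutant replicate 1, -0.41 after the length correction and -0.24, with 5 negative and 1 positive, without the libraries with the lowest and highest normalization factor. The summed level of these markers was lowest in D7 *daf-2(rf)* replicates 2 and 3, at 40710 and 50700 CPM. *acy-4*, an adenylate cyclase that acts in the gonadal sheath for oocyte maturation, measured 13.6, 27.7 and 11.8 CPM in D1 *daf-2(rf)*, 9.31, 11.5 and 11.7 CPM in the D1 double mutant, 6.44, 4.03 and 4.31 CPM in D7 *daf-2(rf)* and 13.8, 13.9 and 27.6 CPM in the D7 double mutant. It had an interaction of -2.6 (SE 0.58, adjusted p = 0.058). Nuclear hormone receptors, ligand-regulated transcription factors, had 23 of 117 negative and 2 positive, with a median of -0.67. Cuticle collagens had 1 of 64 negative and 2 positive, with a median of -0.03 that changed sign under upper-quartile normalization (0.09), and that 1 gene, *dpy-22*, is a Mediator subunit and no collagen.

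No insulin signaling or Notch gene was called by edgeR. Of 19 genes from the receptor to DAF-16, 4 were negative and 1 positive at an unadjusted p under 0.05, with a median of -0.04. The median was 0.05 under upper-quartile normalization, 0.12 without D1 double mutant replicate 1, -0.47 without the libraries with the lowest and highest normalization factor, and 0.69 after the length correction, which gave 7 positive and 3 negative. Of 13 Notch receptors and effectors, 1 was positive and 1 negative at that p. DESeq2's Wald test called 3 negative and 1 positive of the 19, among them *let-363* (adjusted p = 0.0079) and *par-5* (adjusted p = 0.023), and 1 of the 13, *sygl-1* (adjusted p = 0.044), beside 10.9% of the 7751 genes to which DESeq2 gave an adjusted p. *par-5*, a 14-3-3 protein that binds phosphorylated DAF-16, had the positive one, 2.23 (SE 0.67, adjusted p = 0.091), and *let-363*, the TOR kinase, had -1.70 (SE 0.47, adjusted p = 0.082). *daf-2* had 0.32 (SE 0.50, adjusted p = 0.72). The noncanonical Notch ligand *dos-3* had no reads in the D1 double mutant and measured 0.832, 1.67 and 0.388 CPM in D1 *daf-2(rf)*, 10.8, 15.6 and 4.37 CPM in D7 *daf-2(rf)* and 0.309, 0.434 and 0.814 CPM in the D7 double mutant. It was higher in *daf-2(rf)* at both ages without overlap, and its fitted interaction of -2.57 (SE 2.14, adjusted p = 0.49) rests on a group at 0 and is no bound, and was positive on the FPKM scale. *lin-12*, a Notch receptor of the somatic gonad, had an interaction of -1.46 (SE 0.58, adjusted p = 0.15), and *glp-1*, the germ line receptor, had -1.49 (SE 0.73, adjusted p = 0.24). *sygl-1* and *lst-1*, targets of GLP-1 signaling in germline stem cells, had 2.68 (SE 0.92, adjusted p = 0.12) and 1.03 (SE 0.49, adjusted p = 0.22), and *fos-1* had -1.0 (SE 0.66, adjusted p = 0.38).

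The interaction also moved with gene length. Its median went from 0.76 in the shortest decile of the genes tested to -0.73 in the longest, and the called genes had a median length of 1289.5 bases when positive and 2385 bases when negative, against 1513 bases over all genes tested. Each library's own trend, as the median deviation of the shortest decile minus that of the longest, was 2.06 in D1 double mutant replicate 1 and -0.90 to 0.53 in the other 11, with all 3 D1 double mutant libraries above the rest and those of the D7 double mutant from -0.90 to -0.42. After the smooth trend with length was removed from each library, the median was 0.10 in the shortest decile and 0.01 in the longest. Then 60 genes were called, 43 of them among the 57. Those that lost their call included *itr-1*, *clec-223*, ZC410.5, K02F6.3, F15D3.7 and *tag-241*. The ribosomal protein genes had a median of 1.99 with 75 of 77 positive at an unadjusted p under 0.05, the large chaperones 1.41 with 13 of 20, and the vitellogenins -2.70 with 2 of 6 negative. The part of RNA integrity or amplification in the length trend was not tested.

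**Figure D5:**
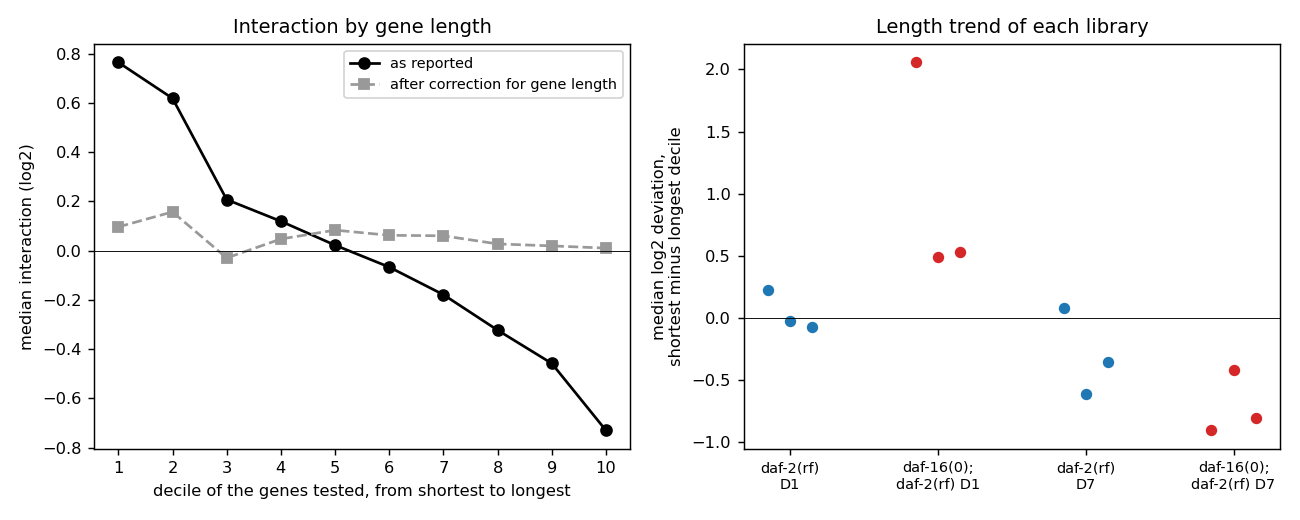
Left, median interaction (log2) in each decile of the genes tested, from shortest to longest, as reported (circles, 0.76 to -0.73) and after correction for gene length (squares, 0.10 to 0.01 from the first to the last decile). Right, median log2 deviation of the shortest minus the longest decile in each library (points; blue *daf-2(rf)*, red *daf-16(0); daf-2(rf)*); D1 double mutant replicate 1 is at 2.06.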

How the data were processed

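GFP+ PSG cells were profiled in 12 RNA-seq libraries, 3 per genotype and age, with animals pooled for each. The deposited counts are whole reads per gene, made by the authors with HISAT2 2.0.5 on WBcel235 and featureCounts 1.5.0-p3. The deposited FPKM values equal those counts divided by gene length and size factors, and were used only in alternatives. Cells were amplified from low input with the SMARTer kit. The annotation release, strand setting and handling of multiply mapped reads are not given in the sources used here. The labels do not say whether replicates were separate cultures, so p-values measure the spread between these samples.

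Genes whose count exceeded 10 in each replicate of 1 group or more were fitted with edgeR 4.0.16 (R 4.3.3; TMM factors, quasi-likelihood test, 1 mean per group), and p-values were Benjamini-Hochberg adjusted over all 8096 genes at 0.05. A gene called is one past that threshold. No replicate pair agreed within sampling noise, the smallest chi-square per degree of freedom being 47.9. The largest was 782.1, between replicates 1 and 3 of D7 *daf-2(rf)*. Alternatives were DESeq2 1.42.0, limma 3.58.1 on log2(FPKM + 1) and log2(FPKM + 0.1), other normalizations and filters, robust dispersions, a replicate block and each library left out. Correction for gene length (lowess span 0.4) and the list counts without D1 double mutant replicate 1 were added after the data were seen.

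Of the 8096 genes tested, 8000 matched a RefSeq gene by sequence name. Named genes were the 12 with the largest fitted interaction in each direction among those called, the 8 with the smallest DESeq2 adjusted p, the called members of 52 gene lists (or the 2 with the smallest p), and genes the study names. The members and lists were chosen with earlier results of these data known.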

Additional observations from a re-analysis of the deposited data

Results flagged for a closer look

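The genotype difference differed between ages, by the interaction test itself, for 57 genes, and for each named gene among them. Positive values were 7.10 for *sod-5*, 5.91 for *cdt-2*, 5.23 for *hsp-16.2*, 5.17 for *cey-2*, 4.94 for *puf-3*, 4.60 for Y49E10.4, 4.52 for *prmt-1*, 4.41 for *cey-3*, 4.18 for F01G4.4, 4.13 for *wrb-1*, 4.12 for ZC410.5, 4.10 for *ima-2*, 3.99 for *rpl-11.1*, 3.16 for *daf-21* and 3.13 for F15D3.7. Negative values were -9.19 for C24A11.6, -6.01 for *rpa-3*, -5.43 for *eea-1*, -5.35 for R03G8.6, -4.70 for C08B6.11, -4.60 for *clec-223*, -4.37 for T19H5.3, -4.35 for C18C4.5, -4.01 for T19H5.1, -3.96 for T28C6.7, -3.91 for *tag-241*, -3.66 for *magu-4*, -3.22 for *itr-1*, -3.0 for T21C9.6, -2.81 for B0513.5, -2.68 for K02F6.3 and -2.2 for *cyp-34A6*. All are log2 differences of the D7 and D1 genotype differences. The groups of 3 libraries are too small for a test of single samples that lie far from the others.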

How the results depend on the processing

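Against 57 genes called, DESeq2's Wald test called 846, no filter on low counts 703 (of 22994 tested), limma on log2(FPKM + 1) 145 and limma on log2(FPKM + 0.1) 36, upper-quartile normalization 1 and leaving out the libraries with the lowest and highest TMM factor 2. With 1 library left out the count lay between 0 and 130, with 1401 to 2169 genes at an unadjusted p under 0.05. DESeq2 size factors gave 59, robust dispersions 52, the set without the 20 genes with the most reads 54, more than 10 reads in every library 75 (of 3835 tested) and a fold change of at least 1 on the log2 scale 57. The share of genes with a positive interaction was 48.5%, and 52.1% under upper-quartile normalization, which moved the median of all genes from -0.05 to 0.08. Replicate numbers showed no pairing on average: deviations from the group means correlated at -0.0228 for libraries with the same number, from -0.266 to 0.247, and at 0.0107 for different numbers. These averages cannot exclude a shared preparation of some libraries. A replicate block called 17 genes, 13 of them among the 57. No called gene reversed under any setting, which follows in part from their choice by the same libraries. Among genes not called, *dos-3* was 1.58 on log2(FPKM + 1) and 1.46 on log2(FPKM + 0.1), *osm-11* -0.30 with the block, -0.37 and -0.41 on those FPKM scales, *daf-16* 0.053 under upper-quartile normalization and 0.69 after the length correction, and *daf-2* -0.009 without the libraries with extreme factors. The cause was not tested. With a library left out, *daf-16* lay between -0.83 and 0.32, *osm-11* between -1.304 and 0.57, *dpy-13* between -1.51 and 2.35, *msp-19* between -1.15 and 5.45 and *msp-57* between -3.73 and 2.59. At 0.372 CPM per read, levels under about 1 CPM in the shallowest library rest on few reads.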
